A study of Mus musculus with 6 samples.

Results

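Integrins, selectins and their adhesion partners were examined in mouse bone marrow blasts of a myeloid leukemia driven by the MLL-AF9 fusion. The 39 genes were fixed by name: 22 integrin subunits, 2 selectins, the selectin ligand gene Selplg, the hyaluronan receptor gene Cd44, 7 adhesion receptors of the immunoglobulin type, 2 tetraspanins and 4 cytoplasmic adaptors. All 39 names matched 1 Ensembl gene each among the 35932 genes of the count table, and 33 passed the filter on low counts. RNA sequencing covered 6 libraries in 2 groups of 3. Resistant blasts carried the labels chemo_resistant and Cytarabin+Doxorubicin, that is, cytarabine, a nucleoside analog, given with doxorubicin, an anthracycline. Sensitive blasts carried the labels chemo_sensitive and vehicule, and blasts of both groups were labelled MLL-AF9+ myeloid leukemic blasts of bone marrow. Drug exposure and resistance thus cannot be told apart here. Dose, time of harvest, strain, age and whether replicates came from separate animals are not given in the labels, so p-values rest on the spread among 3 libraries of a group, and that spread may be technical.

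Integrins are receptors made of 1 alpha and 1 beta chain that tie a cell to matrix or to other cells and pass signals both ways through the membrane. Leukocytes use the beta2 integrins with the ICAM proteins and the alpha4 integrins with VCAM-1 and fibronectin, and alpha4beta1 is known for holding hematopoietic progenitors in the marrow. Selectins bind sialylated and fucosylated sugars, above all those on PSGL-1, the product of Selplg, and so start rolling on vessel walls. Inside the cell, talin and kindlin-3 bind the tail of the beta chain and switch the receptor on.

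Library totals ranged from 22206341 to 31856009 counts, and values below are CPM, that is, counts relative to library sizes adjusted by TMM, listed for libraries 1, 2 and 3 of a group in that order. The limit that a count of 0 allows, taken as 3 counts, was 0.0945 to 0.137 CPM by library and covers counting error only. Markers of the labelled cell type were present: all 16 myeloid blast and progenitor genes passed the filter. The myeloperoxidase gene Mpo averaged 1502 ± 257 CPM in resistant and 1893 ± 256 CPM in sensitive blasts and did not pass. Of the 16, 5 were higher, 4 lower and 7 did not pass, with log2 fold changes from -1.93 for Cebpa to 0.44 for Hoxa9. Over all tested genes, 20.8% were lower and 18.5% higher. Of 14 T and NK cell genes, 11 were too scarce to test, with 1 count of the T cell receptor gene Cd3e in each group. Of the 3 tested, Nkg7 rose (86.7 ± 15 CPM in resistant and 55.4 ± 8.45 CPM in sensitive blasts), and Cd8a (-0.66) and Prf1 (-2.38) fell. Their sum was 71.5 to 98.7 CPM in resistant and 50.7 to 68.9 CPM in sensitive libraries. Maturation markers moved with the groups. Of 16 tested neutrophil genes 12 were lower and 0 higher, with a summed level of 76.7 to 127 CPM in resistant and 286 to 382 CPM in sensitive libraries. Of 13 tested monocyte and macrophage genes, counted without Vcam1, 6 were lower and 1 higher, and their sum was 448 to 516 CPM in resistant and 949.9 to 1034 CPM in sensitive libraries. Erythroid genes summed to 2.4 to 4.1 CPM in resistant and 48.5 to 83.9 CPM in sensitive libraries, with 7 of 9 lower. B cell genes summed to 64.5 to 65.3 CPM in resistant and 169.9 to 201 CPM in sensitive libraries, with 1 of 4 lower. Eosinophil, basophil and mast cell genes went the other way, with sums of 487 to 648 CPM in resistant and 235 to 279 CPM in sensitive libraries, although of 10 tested 2 were higher and 3 lower. The part of these cells in the changes of the adhesion genes was not tested, and in bulk RNA fewer cells of a type and less RNA per cell cannot be told apart.

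Resistant blasts expressed less of most adhesion genes. Of the 33 tested, 19 were lower, 4 higher and 10 did not pass (edgeR quasi-likelihood test, Benjamini-Hochberg adjustment over 13414 genes, threshold 0.05). The 57.6% of adhesion genes called lower stood beside 20.8% of all tested genes, and the 12.1% called higher beside 18.5%; in either direction the shares were 69.7% and 39.2%. Past a fold change of 2, 5 adhesion genes were lower and 2 higher, where 4.74% and 3.05% of all tested genes were. Resistant and sensitive libraries did not overlap in 25 of the 33, against 52.4% of all tested genes. That share also stands beside each gene below whose groups are said to stand apart. The median log2 fold change, resistant over sensitive, was -0.34, against -0.01 over all tested genes. Abundant genes showed the same split: of 23 adhesion genes with a mean of at least 10 CPM, 15 were lower and 2 higher, against 21.3% and 20.8% of the 9033 genes of that abundance.

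**Figure D1:**
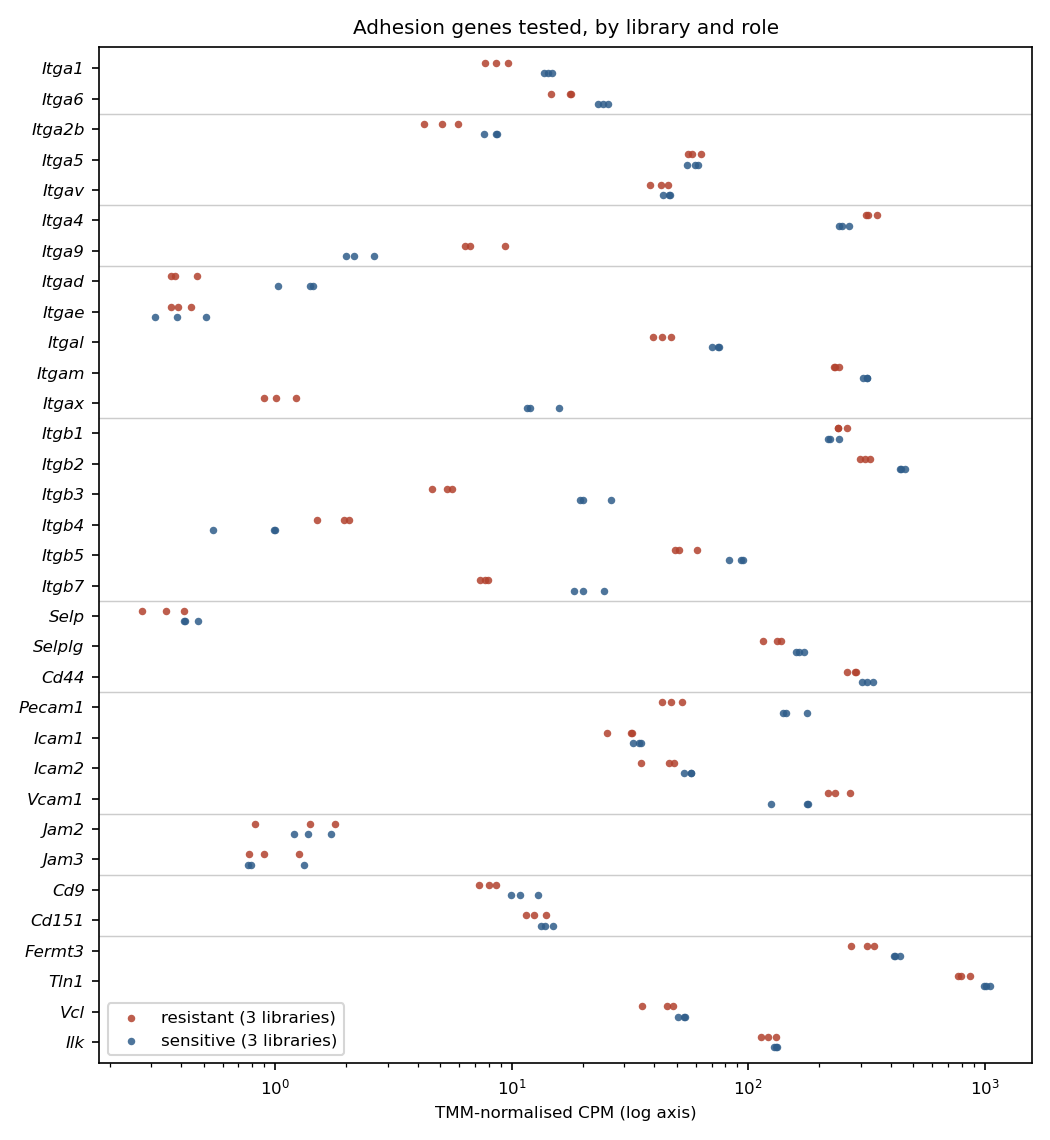
TMM-normalised CPM on a log axis for the 33 tested adhesion genes, 1 point per library (3 resistant, 3 sensitive), grouped by role with grey lines. Itgax, Itgb3, Itgb7 and Pecam1 show resistant libraries far below sensitive ones, and Itga9 shows the opposite order.

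**Figure D2:**
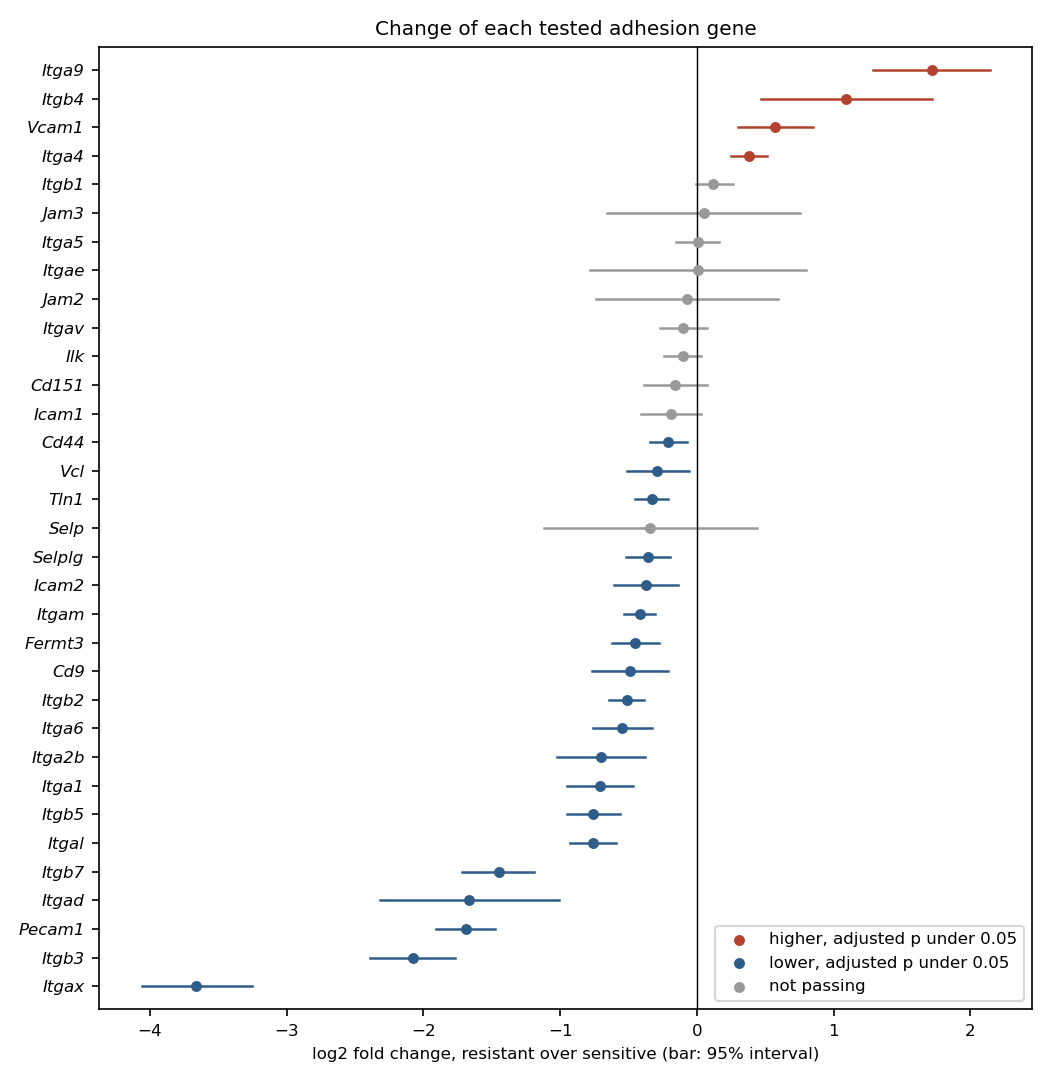
Log2 fold change, resistant over sensitive, of the 33 tested adhesion genes with 95% intervals, coloured by the edgeR call at an adjusted p of 0.05. Changes run from -3.66 for Itgax to 1.72 for Itga9, with 19 genes lower and 4 higher.

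Among the alpha chains of leukocyte integrins, 4 of 5 fell. The counts of called genes in this paragraph stand against 20.8% of all tested genes lower and 18.5% higher. Itgax (ENSMUSG00000030789), which encodes CD11c, the alpha chain of a complement receptor of dendritic cells and macrophages, was at 1.01, 1.23 and 0.897 CPM in resistant libraries, against 15.8, 12 and 11.6 CPM in sensitive ones. All resistant libraries lay far below all sensitive ones, with 82 counts in the 3 resistant libraries together and 1125 counts in the sensitive ones. The change was 12.6-fold lower (log2 fold change -3.66 ± 0.19 SE, edgeR adjusted p = 3.17e-07), the steepest fall among the 33. Itgad, which encodes CD11d, a chain of tissue macrophages, was scarce throughout, with 0.378, 0.364 and 0.468 CPM in resistant and 1.45, 1.41 and 1.03 CPM in sensitive libraries (-1.67 ± 0.30, edgeR adjusted p = 0.00154). These values rest on 32 counts in resistant and 110 counts in sensitive libraries. Itgad shares 70 exon bases with Cox6a2 on the opposite strand, which had 84 counts in the 6 libraries and also fell (-2.72, edgeR adjusted p = 0.00113). With the strand setting not given, reads from the shared bases cannot be told apart. Of 6 tested dendritic cell genes outside the 39, 1 was higher and 3 lower, with sums of 354 to 391 CPM in resistant and 469 to 518 CPM in sensitive libraries; their part in the fall of Itgax was not tested.

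The 2 abundant members of that family fell less. Itgal, which encodes CD11a, the alpha chain of LFA-1, was at 43.1, 39.5 and 47.4 CPM in resistant and 75.3, 70.3 and 74.4 CPM in sensitive libraries, a 1.69-fold fall (edgeR adjusted p = 3.18e-05). Itgam, which encodes CD11b, the alpha chain of the myeloid receptor Mac-1, was at 241, 232 and 231 CPM in resistant, against 319, 306 and 317 CPM in sensitive libraries. The groups stood apart in both genes, and the fall of Itgam was 1.34-fold (edgeR adjusted p = 0.000105). Relative to Itgam, and per kilobase of exon, Itgax stood at 0.00466 ± 0.00078 in resistant and 0.0437 ± 0.00713 in sensitive libraries (SD, n = 3 each), a ratio that no scaling of libraries can move. Itgae, which encodes CD103, a chain of intraepithelial lymphocytes, averaged 0.398 ± 0.0392 CPM in resistant and 0.401 ± 0.101 CPM in sensitive blasts (0.01, 95% interval -0.78 to 0.80). With 32 counts in resistant and 34 in sensitive libraries, that interval is wide.

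Itgam, Itgax and Itgad lie close together on chromosome 7 in the GENCODE M21 gene order, in that order. All 3 fell, by 0.42, 3.66 and 1.67 on the log2 scale. Between Itgam and Itgax lies 1 annotated coding gene, Gm49368, which shares 3450 of the 5024 exon bases of Itgam on the same strand. Gm49368 is not among the genes counted, so it has no value here. The start regions of Itgam and Itgax are shown because these nearby genes differ so much in the size of their fall. Each line gives the 250 bases before the annotated start, from RefSeq on GRCm38.p6, 5′ to 3′ on the gene's strand, which is the plus strand for both, at chr7:128062390-128062639 for Itgam and chr7:128129300-128129549 for Itgax.
Itgam: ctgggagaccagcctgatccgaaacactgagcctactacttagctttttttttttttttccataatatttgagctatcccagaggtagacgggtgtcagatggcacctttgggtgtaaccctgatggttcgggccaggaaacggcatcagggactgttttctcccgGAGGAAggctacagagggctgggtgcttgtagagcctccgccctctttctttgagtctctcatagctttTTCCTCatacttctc
Itgax: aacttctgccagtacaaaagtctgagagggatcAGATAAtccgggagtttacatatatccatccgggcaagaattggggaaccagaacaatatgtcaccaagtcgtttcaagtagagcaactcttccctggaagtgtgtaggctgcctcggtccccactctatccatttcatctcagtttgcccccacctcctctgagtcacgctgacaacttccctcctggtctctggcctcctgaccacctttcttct
Capitals mark matches, on either strand, to 3 short motifs, which do not overlap in these windows. The letters GAGGAA stand for the core that the myeloid factor PU.1 and its ETS relatives bind. The letters TGTGGT stand for the core of RUNX factors. The letters AGATAA stand for the core of the GATA factors. GAGGAA occurred 2 times in the Itgam window and 0 times in that of Itgax, while AGATAA occurred 1 time in the Itgax window. Of all 32851 windows of this length in the table, 23.3% held GAGGAA, 14% held TGTGGT and 9.99% held AGATAA, so each match is common. Of the 28 windows of the 25 adhesion genes with an entry, 10 held GAGGAA, 5 TGTGGT and 2 AGATAA. A match is a run of letters and no measure of binding.

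The alpha4 and alpha9 chains, close relatives that both bind VCAM-1, rose. Itga4 (ENSMUSG00000027009), the alpha chain of VLA-4, was at 349, 316 and 321 CPM in resistant and 268, 249 and 241 CPM in sensitive libraries. Its groups did not overlap, and the rise was 1.30-fold (0.38 ± 0.06, edgeR adjusted p = 0.000767). Itga9 (ENSMUSG00000039115) was at 6.33, 6.69 and 9.36 CPM in resistant and 2, 2.16 and 2.63 CPM in sensitive libraries. That is a 3.29-fold rise, the steepest among the 33 genes (1.72 ± 0.19, edgeR adjusted p = 8.08e-05). Per kilobase of exon, Itga9 remained a small fraction of Itga4, at 0.0415 ± 0.0103 in resistant and 0.0164 ± 0.00319 in sensitive libraries. Their start regions follow, since they are the only alpha chains that rose, drawn and marked as above, both on the plus strand of GRCm38.p6, at chr2:79255176-79255425 for Itga4 and chr9:118711442-118711691 for Itga9.
Itga4: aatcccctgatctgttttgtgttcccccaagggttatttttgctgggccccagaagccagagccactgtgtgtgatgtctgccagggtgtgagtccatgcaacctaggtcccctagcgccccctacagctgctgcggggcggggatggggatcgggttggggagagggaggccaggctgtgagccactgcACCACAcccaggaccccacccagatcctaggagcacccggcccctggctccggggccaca
Itga9: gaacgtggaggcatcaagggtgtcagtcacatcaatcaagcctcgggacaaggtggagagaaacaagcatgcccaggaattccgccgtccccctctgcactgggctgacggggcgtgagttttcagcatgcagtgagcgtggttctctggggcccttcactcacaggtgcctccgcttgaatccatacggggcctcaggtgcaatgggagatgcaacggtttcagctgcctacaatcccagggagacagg
The Itga4 window held 1 RUNX core, read on the opposite strand, and no match to the other letters, and the Itga9 window held none of the 3. Exons of Itga4 and of Cerkl, on the opposite strand, share 1124 bases in GENCODE M21, and the strand setting of the counting is not given. Cerkl, at a mean of 5.44 CPM, changed the other way (-0.85, edgeR adjusted p = 0.00789).

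Alpha chains of laminin, collagen and RGD receptors fell or did not pass. Itga6, a laminin receptor chain of progenitors, was at 17.6, 14.6 and 17.8 CPM in resistant and 25.6, 23.1 and 24.4 CPM in sensitive libraries (-0.55 ± 0.10, edgeR adjusted p = 0.00154). Itga1, a collagen receptor chain, was at 8.63, 7.69 and 9.67 CPM in resistant and 14.8, 14.2 and 13.7 CPM in sensitive libraries (-0.71 ± 0.11, edgeR adjusted p = 0.000614). Both genes had non-overlapping groups. By contrast, Itga5, the alpha chain of the classical fibronectin receptor, averaged 58.9 ± 3.66 CPM in resistant and 58.6 ± 3.16 CPM in sensitive blasts (0.01, 95% interval -0.15 to 0.16). Itgav, the shared alpha chain of vitronectin receptors, averaged 42.5 ± 3.76 CPM in resistant and 45.5 ± 1.65 CPM in sensitive blasts (-0.10, 95% interval -0.27 to 0.07). The groups overlapped in both. Itga2, Itga3 and Itga7, further matrix receptor chains, were too scarce to test, with 26, 2 and 23 counts, in that order, in the 3 resistant libraries together and 10, 5 and 11 counts in the sensitive ones. Of the 26 resistant counts of Itga2, 17 came from library 1.

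The genes of both chains of the platelet integrin alphaIIb-beta3, Itga2b and Itgb3, were lower. The beta3 chain also pairs with alphav. Per kilobase of exon, Itgav was at 3.95 ± 0.35 CPM in resistant and 4.24 ± 0.153 CPM in sensitive blasts. Itga2b was at 0.935 ± 0.156 CPM per kilobase in resistant and 1.52 ± 0.109 in sensitive blasts. Itgb3 (ENSMUSG00000020689) was at 5.61, 5.32 and 4.6 CPM in resistant and 26.2, 19.5 and 20 CPM in sensitive libraries, a 4.22-fold fall (-2.08 ± 0.14, edgeR adjusted p = 2.27e-06). Its partner Itga2b was at 5.96, 5.1 and 4.25 CPM in resistant and 8.7, 7.61 and 8.56 CPM in sensitive libraries, a 1.62-fold fall (edgeR adjusted p = 0.00376). In neither gene did the groups overlap. Platelet and megakaryocyte genes were scarce in part. The platelet factor 4 gene Pf4 had 6 counts in resistant and 0 in sensitive libraries, Ppbp had 2 in each group, and the collagen receptor gene Gp6 had 0 in all 6. The platelet receptor gene Gp1ba, by contrast, had 372 counts in resistant and 172 in sensitive libraries and rose (1.23, edgeR adjusted p = 0.00352). Nrgn (644 counts in resistant and 1950 in sensitive libraries) and Clec1b (39 in resistant and 92 in sensitive libraries) fell, as did Gfi1b and F2rl2, while Gp9 (80 in resistant and 134 in sensitive libraries) and Vwf did not pass. Of 9 tested megakaryocyte and platelet markers outside the 39 genes, 5 were lower and 1 higher, against 20.8% and 18.5% of all tested genes. Their sum was 221 to 245 CPM in resistant and 298 to 299.9 CPM in sensitive libraries, and most of it came from the transcription factor genes Nfe2 (118 CPM in resistant and 167 CPM in sensitive blasts) and Fli1 (97.2 CPM in resistant and 99 CPM in sensitive blasts), which myeloid cells also express. The part of these cells in the fall of Itgb3 and Itga2b was not tested.

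Among beta chains, 4 of 6 tested fell, beside 20.8% of all tested genes lower and 18.5% higher. Itgb2, which encodes CD18, the common partner of CD11a to CD11d, was at 296, 329 and 313 CPM in resistant and 437, 442 and 459.6 CPM in sensitive libraries. The fall was 1.43-fold (-0.51 ± 0.06, edgeR adjusted p = 5.47e-05). Itgb7 (ENSMUSG00000001281), the partner of alpha4 in the gut homing receptor and of CD103, was at 7.34, 7.74 and 7.96 CPM in resistant and 24.5, 20.1 and 18.4 CPM in sensitive libraries. It thus fell 2.74-fold (edgeR adjusted p = 9.7e-06) while its partner gene Itga4 rose. Itgb5, an RGD receptor chain that pairs with alphav, was at 48.9, 51.2 and 60.6 CPM in resistant and 93.7, 82.9 and 94.9 CPM in sensitive libraries (-0.76 ± 0.09, edgeR adjusted p = 9.43e-05). All 3 of these genes had groups that stood apart.

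Itgb1, the beta chain shared by the most integrins, did not pass, with 247 ± 12.8 CPM in resistant and 227 ± 13.3 CPM in sensitive blasts (0.12, 95% interval -0.01 to 0.26, edgeR adjusted p = 0.144). Itgb4, the partner of alpha6 in epithelial laminin receptors, rose 2.13-fold at a low level. It was at 1.51, 2.05 and 1.95 CPM in resistant and 0.998, 0.549 and 0.994 CPM in sensitive libraries (edgeR adjusted p = 0.0115). Itgb8, a chain that binds latent TGF-beta, had 1 count in the 6 libraries.

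Set side by side per kilobase of exon, Itgb1 and Itga4 took larger shares of the integrin chains in resistant blasts, and Itgb2 and Itgam smaller ones. Itgb1 made up 33.3% ± 2.29 of beta chain level in resistant and 23.3% ± 1.09 in sensitive libraries, and Itgb2 made up 56.3% ± 2.07 in resistant and 61.3% ± 1.89 in sensitive libraries (SD, n = 3 each). Among alpha chains, Itga4 made up 24.1% ± 0.743 in resistant and 15.5% ± 0.673 in sensitive libraries, and Itgam 48% ± 0.441 in resistant and 53.7% ± 0.388 in sensitive libraries. These shares are descriptions with no test, and in each of the 4 the ranges of the groups did not overlap.

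Summed over all subunits, the beta chains reached 179, 185 and 182 CPM per kilobase in resistant and 242, 232 and 242 in sensitive libraries. The alpha chains reached 99.8, 95.4 and 96.9 CPM per kilobase in resistant and 119, 114 and 116 in sensitive libraries. The order of the leading alpha chains was Itgam, Itga4, Itga5, Itgal and Itgav in both groups. Itga5 and Itgal, at 11.9 ± 0.742 and 6.59 ± 0.602 CPM per kilobase in resistant blasts, stood at 11.9 ± 0.641 and 11.2 ± 0.409 in sensitive blasts, where they differed by about their spread. In sensitive blasts Itgax (2.73 ± 0.479) ranked with Itga6 (2.7 ± 0.143), and in resistant blasts it lay below Itga1 (0.218 ± 0.0351 against 0.466 ± 0.0533). For beta chains the order was Itgb2, Itgb1, Itgb5, Itgb7, Itgb3 and Itgb4 in both groups. With the longest transcript as the length, the share of Itga4 was 28.2% in resistant and 18.5% in sensitive libraries, and that of Itgam 42.1% in resistant and 47.8% in sensitive libraries.

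**Figure D3:**
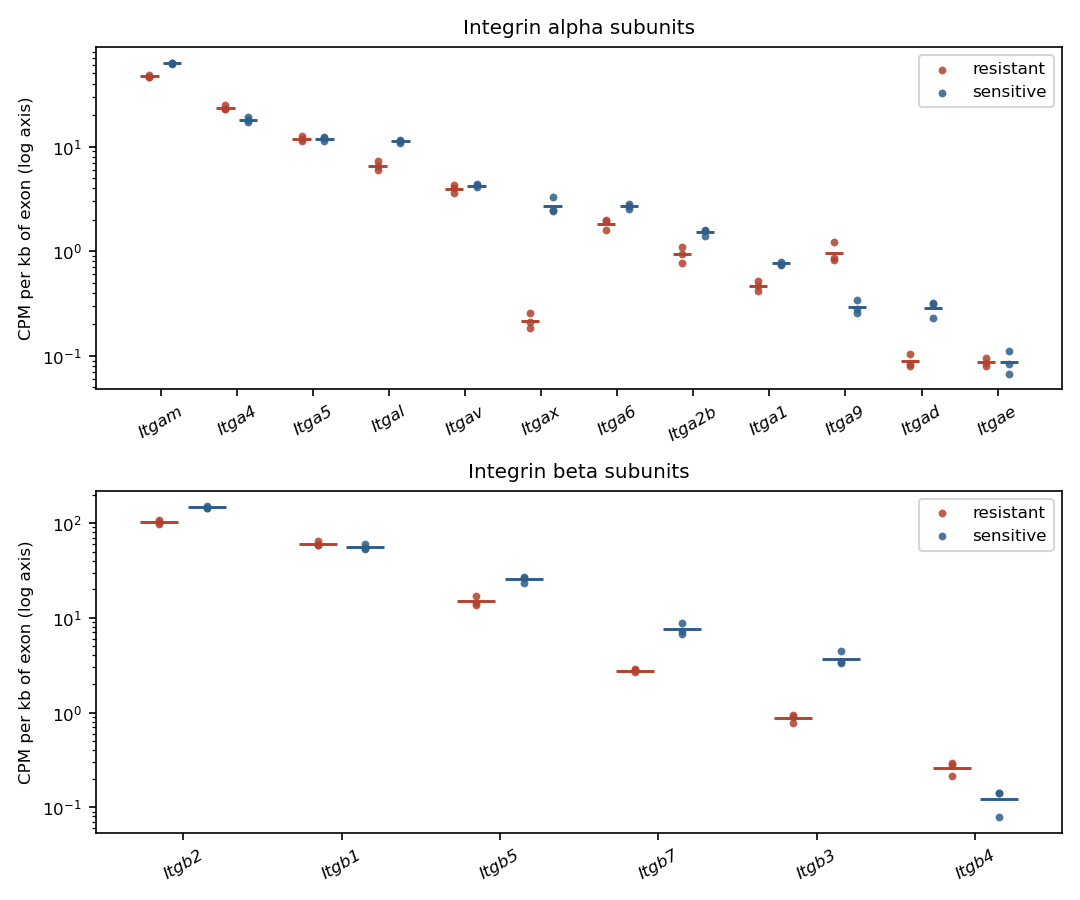
CPM per kilobase of exon on a log axis for the tested integrin alpha chains (top) and beta chains (bottom), 1 point per library with group means as lines, ordered by the level in sensitive blasts. Itgam and Itgb2 lead in both groups, and Itgax and Itgb3 show the widest gaps, with resistant libraries lower.

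Both selectins of the list were scarce, and their ligand gene fell. Selp, which encodes P-selectin, an adhesion receptor of platelets and endothelium, had 27 counts in resistant and 37 in sensitive libraries (-0.34, 95% interval -1.12 to 0.44, edgeR adjusted p = 0.48). Sele, which encodes the endothelial E-selectin, had 16 counts in resistant and 32 in sensitive libraries and was not tested. Of 16 endothelial markers outside the 39, 4 were at 0 in all libraries. The VE-cadherin gene Cdh5 had 3 counts in resistant and 6 in sensitive libraries. Of 5 markers tested, 3 were lower and 0 higher, against 20.8% and 18.5% of all tested genes. The 16 markers summed to 12.6 to 15 CPM in resistant and 21.6 to 21.7 CPM in sensitive libraries. The part of endothelial cells in the counts of Sele and Selp was not tested. Selplg was at 115, 133 and 138 CPM in resistant and 172, 164 and 159 CPM in sensitive libraries, a 1.29-fold fall with groups apart (-0.36 ± 0.07, edgeR adjusted p = 0.00286). Cd44, which encodes a hyaluronan receptor that also carries selectin-binding sugars, was at 261, 283 and 287 CPM in resistant and 338, 319 and 303 CPM in sensitive libraries. Its fall of 0.21 on the log2 scale (edgeR adjusted p = 0.0192) did not pass without resistant library 1 (0.0561), sensitive library 1 (0.0723) or sensitive library 2 (0.0663).

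Of 15 tested genes that modify selectin ligands or carry their sugars, 8 were lower, 1 higher and 6 did not pass. Their median log2 fold change was -0.25, and over all tested genes 20.8% were lower and 18.5% higher. The 6 were Fut4, C1galt1, Tpst1, Tpst2, Galnt1 and Glg1. Fut7, the fucosyltransferase that completes the sialyl Lewis x epitope, was at 14.2, 17.9 and 13.2 CPM in resistant and 29.6, 30.8 and 27.6 CPM in sensitive libraries (1.94-fold lower, edgeR adjusted p = 0.000106). Gcnt1, which makes the branch on which that epitope sits, was at 15.9, 14.5 and 13.6 CPM in resistant and 27.9, 23.2 and 25.8 CPM in sensitive libraries (1.74-fold lower, edgeR adjusted p = 0.000151). Cd24a, a small glycoprotein that can bind P-selectin, fell 1.89-fold. The 1 gene that rose was Podxl, a sialomucin gene, with 119 counts in resistant and 13 in sensitive libraries. With the filter of at least 1 CPM in 3 libraries, the count of higher genes was 0.

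**Figure D4:**
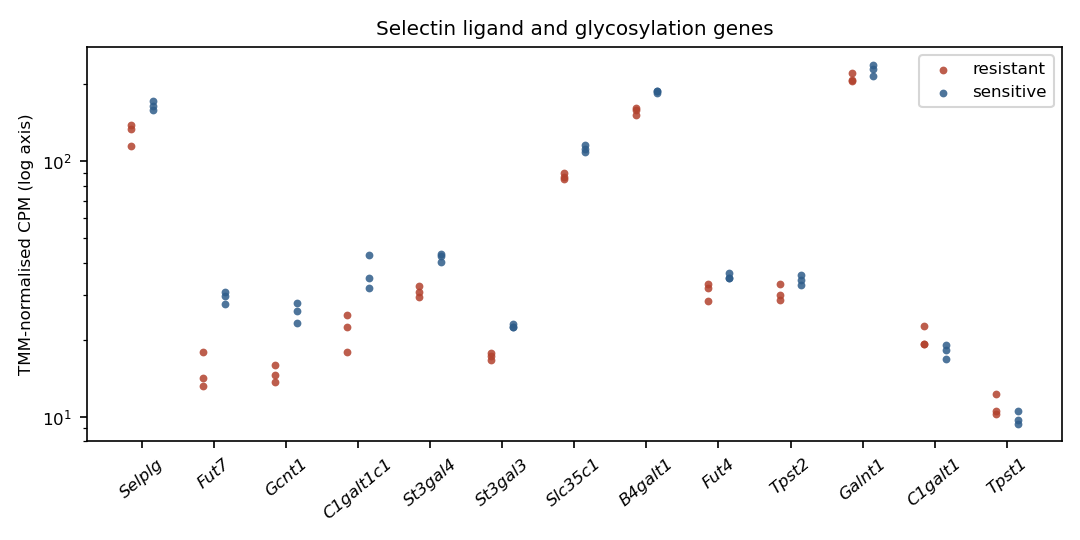
TMM-normalised CPM on a log axis for Selplg and 12 genes that modify selectin ligands or carry their sugars, 1 point per library. Of the 15 such genes tested, Cd24a (lower), Glg1 (not passing) and Podxl (the 1 higher) are not drawn. Resistant libraries lie below sensitive ones for Selplg and for Fut7 to B4galt1, and the groups lie close together for the 5 genes at the right.

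Immunoglobulin-type receptors split. Pecam1 (ENSMUSG00000020717), which encodes CD31, a receptor that binds itself on neighbouring cells and carries inhibitory motifs, was at 43.4, 47.4 and 52.3 CPM in resistant and 177, 145 and 139.7 CPM in sensitive libraries. That is a 3.23-fold fall with a wide gap between groups (edgeR adjusted p = 7.92e-07). Vcam1 (ENSMUSG00000027962), which encodes the ligand of alpha4 and alpha9 integrins, was at 217, 269 and 234 CPM in resistant and 125, 179 and 178 CPM in sensitive libraries. It rose 1.49-fold (0.57 ± 0.13, edgeR adjusted p = 0.00498), with sensitive library 1 the lowest of all 6. Among the monocyte and macrophage genes counted above, the Fc receptor gene Fcgr1 moved with Vcam1 (2.84, edgeR adjusted p = 5.43e-05), with 121 counts in resistant and 18 in sensitive libraries. Ly6c2 (-1.37), Lyz2 (-1.91), Cx3cr1 (-1.90), Csf1r (-0.94), Cd68 (-0.60) and Ccr2 (-0.41) fell, and Adgre1, Mrc1, Cd163, C1qa, C1qb and C1qc did not pass. The part of macrophages in the rise of Vcam1 was not tested.

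The ICAM genes, whose products are ligands of LFA-1 and Mac-1, moved less. Icam2 was at 35.2, 48.7 and 46.4 CPM in resistant and 57.3, 57.6 and 53.5 CPM in sensitive libraries, with resistant library 1 the lowest. Its fall of 0.37 (edgeR adjusted p = 0.0186) did not pass without sensitive library 1 (0.0622) or sensitive library 2 (0.0668). Icam2 and Pecam1 lie near each other on chromosome 11 with 2 coding genes between, Ern1 and Tex2, whose log2 fold changes were -0.38 and -0.33. Icam1 was at 32.3, 32 and 25.3 CPM in resistant and 34.5, 32.5 and 35.4 CPM in sensitive libraries and did not pass (-0.19, 95% interval -0.41 to 0.03, edgeR adjusted p = 0.147).

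Junctional adhesion molecules, ligands of leukocyte integrins at cell contacts, were low. Jam2 averaged 1.34 ± 0.492 CPM in resistant and 1.44 ± 0.265 CPM in sensitive blasts, and Jam3 averaged 0.977 ± 0.253 CPM in resistant and 0.965 ± 0.319 CPM in sensitive blasts. Neither passed, and at this depth the 95% intervals of the log2 fold change were wide, from -0.74 to 0.59 for Jam2 and from -0.66 to 0.75 for Jam3. F11r, which encodes JAM-A, failed the filter with 1, 1 and 2 counts in resistant and 9, 6 and 14 counts in sensitive libraries. In a fit with no filter on low counts it was the 1 gene among the 6 untested that passed, as lower (edgeR adjusted p = 0.00702).

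The tetraspanins, membrane organizers that hold integrins in clusters, fell or did not pass. Cd9 was at 8.6, 7.28 and 8.04 CPM in resistant and 10.9, 12.9 and 9.91 CPM in sensitive libraries (-0.49 ± 0.13, edgeR adjusted p = 0.0114; 0.067 without sensitive library 2). Cd151, a partner of laminin-binding integrins, was at 12.6 ± 1.27 CPM in resistant and 14 ± 0.79 CPM in sensitive blasts (-0.16, edgeR adjusted p = 0.263). Over all tested genes, 20.8% were lower and 18.5% higher. Among 18 other tested genes of the tetraspanin family and its partners, 5 were lower, 2 higher and 11 did not pass. They included Tspan5, which rose 1.69-fold (61.1 ± 2.75 CPM in resistant and 36.1 ± 0.938 CPM in sensitive blasts, edgeR adjusted p = 1.22e-05), and Tspan13 (-1.27), Tspan14 (-0.27) and Cd82 (-0.25), which fell. The count of lower genes was 3 without sensitive library 2 and 2 without sensitive library 3, and that of higher genes was 1 without resistant library 1 or 3, without any 1 of the sensitive libraries, with upper quartile scaling, library totals or no filter on low counts, and by DESeq2.

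Of 4 cytoplasmic adaptor genes, 3 fell by small amounts, beside 20.8% of all tested genes lower and 18.5% higher. Tln1, which encodes talin, ranked next to Itgb2 per kilobase of exon, at 82.7 ± 4.75 CPM per kilobase in resistant and 104 ± 2.94 in sensitive blasts. It was at 773, 863 and 795 CPM in resistant and 1049, 993 and 1011 CPM in sensitive libraries. The groups stood apart by a 1.26-fold fall (-0.33 ± 0.05, edgeR adjusted p = 0.000897). Fermt3, which encodes kindlin-3, the kindlin of blood cells, was at 271, 341 and 317 CPM in resistant and 416, 415 and 440.5 CPM in sensitive libraries (1.37-fold lower, edgeR adjusted p = 0.00115). Vcl, which encodes vinculin, a link from talin to actin, fell by 0.29 (edgeR adjusted p = 0.0457), with 45.6, 48.2 and 35.5 CPM in resistant and 53.3, 50.4 and 53.9 CPM in sensitive libraries. That call was lost without any 1 of the libraries except resistant library 2, with adjusted p of 0.0554 to 0.125. Ilk, a pseudokinase gene of focal adhesions, averaged 122 ± 8.81 CPM in resistant and 131 ± 1.46 CPM in sensitive blasts and did not pass (-0.10, 95% interval -0.24 to 0.03). Ap3m1, on the opposite strand, shares 2090 of the 8191 exon bases of Vcl in GENCODE M21. Taf10, also on the opposite strand, shares 2106 of the 2744 exon bases of Ilk, and Rrp8 shares 355. Means over the 6 libraries were 139 CPM for Ap3m1, 149 CPM for Taf10 and 39.5 CPM for Rrp8. None of these passed (0.11 for Ap3m1, -0.02 for Taf10 and -0.04 for Rrp8). With the strand setting not given, reads from the shared bases cannot be told apart. Fermt3 shares 89 exon bases with Trpt1 on the opposite strand, a gene with a mean of 2.28 CPM that moved with it (-0.61, edgeR adjusted p = 0.0281).

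The wider adhesion machinery moved both ways, and the counts of this paragraph stand against 20.8% of all tested genes lower and 18.5% higher. Among 33 further tested genes of integrin activation and adhesion complexes, 12 were higher, 7 lower and 14 did not pass, with a median log2 fold change of 0.02. The count of higher genes dropped to 4 without sensitive library 2 and to 7 without sensitive library 3. Parvb, a parvin that joins Ilk to actin, was at 2.09 ± 0.297 CPM in resistant and 5.52 ± 0.369 CPM in sensitive blasts (-1.41). The parvin gene Parvg was higher, at 479 ± 17.8 CPM in resistant and 432 ± 13.3 CPM in sensitive blasts (0.15, edgeR adjusted p = 0.0396). Like Parvb, the actin crosslinker gene Actn1 (-0.66) and the scaffold gene Pxn (-0.34) fell. Tns1, a tensin gene, rose 1.92-fold. Of 17 integrin signalling genes, 7 were lower, 2 higher and 8 did not pass: Ptk2b, which encodes the kinase PYK2 (1.61-fold lower, edgeR adjusted p = 1.18e-05), Pik3cg (-0.62), the Src-family kinase gene Fgr (-1.72) and the docking protein gene Nedd9 (-0.75) fell. The 2 higher calls were 1 without sensitive library 2 or 3. Of 21 actin and myosin regulators, 6 were lower, 3 higher and 12 did not pass, with Rdx, the radixin gene, at -0.71 and its relative Msn, the moesin gene, at 0.26, beside Dock2 (-0.23) and Myl12b (0.25). The lower ones were 3 without sensitive library 2. The shares of the actin and myosin regulators, like that of lower genes among adhesion complex genes, are near those over all tested genes. Nothing is read from these shares.

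Genes of integrin ligands were mostly scarce in the blasts, with 13 of 29 tested and 8 at 0 counts in all 6 libraries. Of the 13, 1 was higher, or 2 without sensitive library 3, and 5 were lower. Over all tested genes, 20.8% were lower and 18.5% higher, and the counts of this paragraph stand against these shares. Emilin1, whose product is a matrix ligand of alpha4 and alpha9 integrins, was at 87.3, 110 and 93.9 CPM in resistant and 36.2, 40.9 and 38.6 CPM in sensitive libraries, a 2.52-fold rise (edgeR adjusted p = 2.24e-06). The fibronectin gene Fn1 was down to 10 counts in resistant libraries, against 128 in sensitive ones, and Spp1, the osteopontin gene, and Fbn1, the fibrillin gene, fell by 1.93 and 1.99 on the log2 scale. Among 16 other leukocyte adhesion receptors tested, 7 were lower, 3 higher and 6 did not pass, with Cd93 (-1.55), Cd244a (-0.84) and Sirpa (-0.54) among the lower ones.

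**Figure D5:**
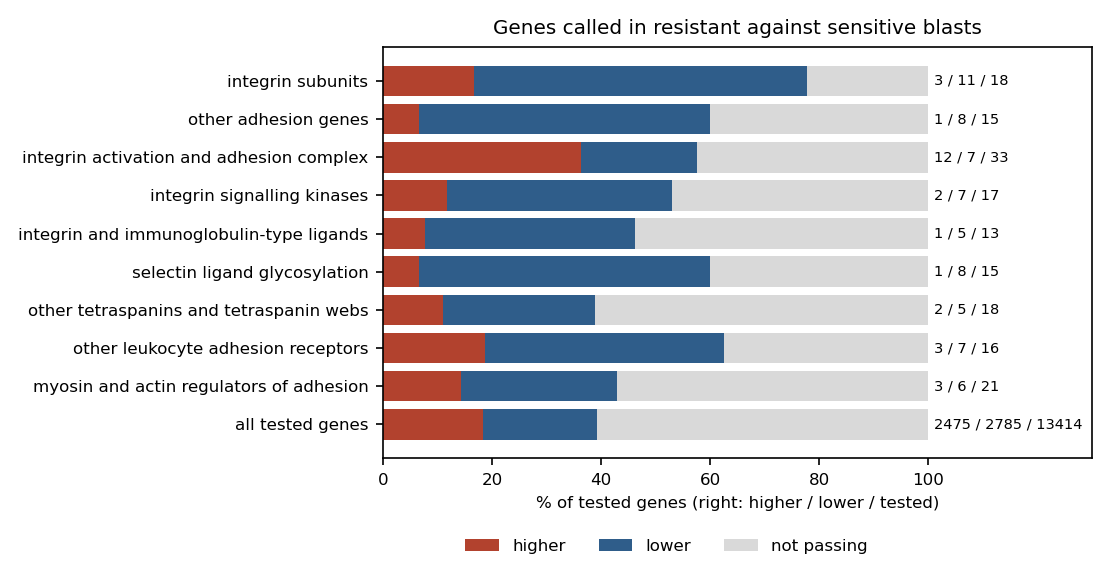
Share of tested genes called higher, lower or not passing in resistant against sensitive blasts (edgeR adjusted p under 0.05) for the integrin subunits, the other adhesion genes, 7 related lists and all tested genes, with counts at the right. Lower calls take 11 of 18 integrin subunits and 8 of 15 other adhesion genes, while higher calls lead in integrin activation and adhesion complex genes (12 against 7).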

How the data were processed

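Whole-number counts per Ensembl gene were deposited by the authors in 1 table, with no normalisation apparent in the values; TopHat2, RSEM and the build mm9 are named in the submitters' processing notes, without roles. The sources used here do not give the strand setting, the annotation or the treatment of shared reads. IDs were matched to symbols with GENCODE M21, a later build used for names, gene order, exon overlaps and exon lengths only. Columns matched 1 sample each by title.

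Low counts were removed by filterByExpr, library sizes adjusted by TMM, and groups compared with the quasi-likelihood F test of edgeR 4.0.16 (R 4.3.3; group only, Benjamini-Hochberg over 13414 genes); the step was tested on simulated data. The common dispersion of 0.007 is a coefficient of variation of 8.37% between libraries. Within-group pairs of libraries differed beyond sampling noise (3.92 to 13.59 times the chi-square expected from sampling), so none was a copy. Same-numbered libraries did not deviate together (correlations of -0.086 to 0.037). DESeq2 1.42.0, limma-voom (limma 3.58.1), other scalings and filters (none, or at least 1 CPM in 3 libraries), a replicate block and each library left out were alternatives.

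The genes and lists were chosen with earlier results of these data known. Named are all 39 genes and, of each related list, up to 4 genes with the smallest adjusted p among those past the test. Parvg is named as well, beside its relative Parvb. From marker lists, mainly defining genes at or near 0 and the most abundant are named. Some overlapping and neighbouring genes are named beside the gene they touch. Promoter windows come from RefSeq (GRCm38.p6), with entries for 25 of the 39 genes; the letters of the motifs were chosen for this text. Per-kilobase levels divide CPM by the union of a gene's exons. Some genes of the related and marker lists are counted but not reported here by name.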

Additional observations from a re-analysis of the deposited data

How the results depend on the processing

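Of the 23 called adhesion genes, 19 kept their call and direction under all 14 alternatives; Cd44, Icam2, Cd9 and Vcl lost theirs in some fits that left out 1 library, as given above. The count of lower adhesion genes was 15 to 19 with 1 library left out and 19 to 20 under the other alternatives, and that of higher ones was 4 throughout. Their median stayed between -0.38 and -0.31. Over all tested genes, leaving out 1 library gave 1641 to 2521 higher and 2015 to 2711 lower calls. Without sensitive library 2 the higher calls were 1641; the cause was not tested. The labels do not say whether the replicate numbers pair the samples. With the replicate number as a block, 4 adhesion genes were higher and 19 lower, with 2497 higher and 2824 lower calls over all genes. Of the counts of the related lists, the block moved that of higher tetraspanin genes by over 1.5 times, to 1.

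Itgae, Selp and Jam3 gave no value with the filter of at least 1 CPM in 3 libraries. Values near 0 that passed in no fit changed sign in some. Itga5 was at -0.03 and Itgae at -0.02 with library totals. With 1 library left out, Itga5 ran from -0.04 to 0.05, Itgae from -0.14 to 0.2, Jam2 from -0.35 to 0.17 and Jam3 from -0.19 to 0.34. Of 308 shares of subunits recomputed with the longest transcript as length or with 1 library left out, 16 moved by more than their SD, all of alpha chains and with the other length. Of 196 counts of the related lists, 20 moved by over 1.5 times. Depth limits Itga2, Itga3, Itga7, Itgb8, Sele and F11r, which had too few counts to test.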
